A study of Mus musculus with 48 samples.

Results

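The 10 genes described here mark or act on the cells that line vessels. They are Kdr, Flt1, Tek and Tie1, which encode receptor tyrosine kinases, Cdh5 and Pecam1, which encode junction proteins, Vwf and Egfl7, which encode proteins that endothelial cells release, Lyve1, a surface receptor for hyaluronan, and Vegfa, the ligand of Kdr and Flt1. They were taken by symbol from a table of 55487 genes measured in 48 libraries of mouse mammary gland, and each of the 10 symbols occurs on 1 row. Vegfa is not itself an endothelial marker, since adipocytes, epithelium, muscle and macrophages make it. Blood vessels grow towards VEGF-A, which acts mainly through the receptor that Kdr encodes, while the protein of Flt1 binds the ligand tightly and limits its supply. The angiopoietin receptor encoded by Tek, with its partner encoded by Tie1, governs whether vessels stay quiescent or remodel. In the mammary gland the capillaries run through the fat pad around adipocytes and along the epithelial ducts.

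The mice carry MMTV-rtTA, in which a mammary tumour virus promoter, active mainly in mammary epithelium, drives a doxycycline-dependent activator, plus 1 of 2 responder transgenes. The responder is tet-op-Esr1, for estrogen receptor alpha, or tet-op-CYP19A1, for aromatase, the enzyme that makes estrogens, so that neither transgene is aimed at endothelium. In each of the 2 models 8 groups of 3 libraries were made from thoracic glands. These are uninduced glands at 12, 18 and 24 months of age, glands induced for 1 week at 12 and at 18 months, glands induced for 6 or 12 months and taken at 24 months, and glands induced for 18 months and taken at 30 months. No uninduced gland of 30 months and no gland exposed to doxycycline without a responder is among the 48, so the drug and the transgene cannot be told apart. The 2 models are separate colonies, so colony and transgene cannot be told apart either. The 3 libraries of a group are labelled biological replicates, with no statement that they stem from 3 mice, and a p-value here weighs a difference against their spread alone. Sample titles change their format between 18 and 24 months of age, and if a batch changed there too, batch and age cannot be told apart.

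The values are TPM, a relative abundance of transcripts, which is per transcript length and sums to the same total in every library. A library that holds more of 1 abundant RNA therefore holds fewer TPM of everything else. In 9 libraries, 7 of the CYP19A1 and 2 of the Esr1 model, 3 rows that collect ribosomal RNA (CT010467.1, AY036118 and Lars2) took between 15.6% and 67.2% of all TPM. In the other libraries they took at most 4.54%. The 7 are replicates 1 and 3 of uninduced CYP19A1 glands at 12 months, all 3 libraries of 1 week at 12 months, replicate 1 uninduced at 18 months and replicate 3 uninduced at 24 months. The 2 of the Esr1 model are replicate 3 of 6 months at 24 months and replicate 3 of 18 months at 30 months. Results are therefore also given after each library was rescaled by its median ratio over 14816 protein-coding genes found in all libraries (factors 0.315 to 1.41), and without these 9 libraries. Skeletal muscle RNA also varied, with Acta1 between 48.6 and 8710 TPM.

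The receptor genes that vary together, described further on, can be seen beside the 250 bases that precede their start in RefSeq. The windows of Kdr (chr5:75978456-75978705, minus strand), Flt1 (chr5:147726012-147726261, minus strand) and Tek (chr4:94739039-94739288, plus strand) come from RefSeq promoters of GRCm38.p6. The letters are written 5′ to 3′ with GGAA, the core that ETS family factors such as ERG and FLI1 recognise, or its reverse complement TTCC, in capitals.
Kdr: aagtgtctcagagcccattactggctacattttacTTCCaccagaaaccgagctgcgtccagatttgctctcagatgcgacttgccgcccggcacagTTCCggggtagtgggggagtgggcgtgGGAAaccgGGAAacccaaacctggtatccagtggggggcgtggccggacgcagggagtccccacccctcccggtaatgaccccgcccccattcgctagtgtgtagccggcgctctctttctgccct
Flt1: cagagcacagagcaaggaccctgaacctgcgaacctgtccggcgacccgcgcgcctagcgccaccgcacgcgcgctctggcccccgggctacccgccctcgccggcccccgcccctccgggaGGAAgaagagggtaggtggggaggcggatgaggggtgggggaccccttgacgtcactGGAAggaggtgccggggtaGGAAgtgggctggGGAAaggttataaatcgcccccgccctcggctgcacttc
Tek: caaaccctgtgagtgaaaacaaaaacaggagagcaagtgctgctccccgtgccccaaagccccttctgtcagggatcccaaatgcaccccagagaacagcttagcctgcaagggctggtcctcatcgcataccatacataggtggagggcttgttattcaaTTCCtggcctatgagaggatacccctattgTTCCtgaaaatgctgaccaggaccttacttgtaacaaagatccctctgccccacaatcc
Kdr and Flt1 hold 4 matches each and Tek holds 2, and the window of Tie1, which is not printed because it reaches into the annotated gene, holds 7. Windows of members that are not receptor genes hold matches too: 5, 3 and 1 in those of Egfl7 and 6 and 2 in those of Vegfa. The Kdr window reaches 3 bases into the gene as GENCODE places it. A match of 4 letters is common: 93.4% of 32851 promoter windows of this length hold at least 1, with a median of 3 matches. The longer AGGAAG, on either strand and including the core, is in 29.5% of windows, and occurs 2 times in the Flt1 window, 1 time in that of Tie1 and 0 times in those of Kdr and Tek. It occurs 3, 1 and 0 times in the windows of Egfl7 and 0 times in those of Vegfa. These counts describe letters and show no binding.

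All 10 genes were detected in all 48 libraries. Since TPM are per length, the levels of different genes can be set side by side. Egfl7, a secreted factor on chromosome 2 (26580014 to 26593120, plus strand), was the most abundant of them with a mean of 70.5 TPM. Its introns hold Mir126a (26591357 to 26591429), the endothelial microRNA, in 7 of 12 coding transcripts, but the row of that hairpin is listed at 0 in all 48 libraries. Vegfa (chromosome 17, 46016993 to 46032369, minus strand) followed with 49.0 TPM, and Pecam1 (chromosome 11, 106654217 to 106750628, minus strand), an adhesion molecule at endothelial contacts, with 42.5 TPM. Cdh5 (chromosome 8, 104101625 to 104144511, plus strand), the cadherin of endothelial junctions, had a mean of 24.3 TPM. Among the receptors, Kdr (chromosome 5, 75932827 to 75978458, minus strand) had 18.2 TPM, Flt1 (chromosome 5, 147561604 to 147726011, minus strand) 11.4 TPM, Tek (chromosome 4, 94739289 to 94874976, plus strand) 10.4 TPM and Tie1 (chromosome 4, 118471191 to 118490061, minus strand) 7.63 TPM. Vwf (chromosome 6, 125546774 to 125686679, plus strand), the clotting protein stored in endothelial granules and in platelets, had 15.2 TPM. Lyve1 (chromosome 7, 110850607 to 110863239, minus strand), which lymphatic endothelium and some tissue macrophages express, was the scarcest with 4.40 TPM. Positions are those of the gene in GENCODE M21 (GRCm38), whose identifiers, version included, matched all 10 rows.

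Over single libraries the lowest value of all 8 blood endothelial genes (the 10 without Lyve1 and Vegfa) was in replicate 1 of the uninduced CYP19A1 glands at 12 months, the library with 67.2% of TPM on ribosomal RNA rows. There Kdr was at 6.17, Pecam1 at 12.1 and Egfl7 at 24.3 TPM. Replicate 2 of the same group held the highest value of Cdh5 (47.5 TPM), Flt1 (22.1 TPM), Tie1 (13.95 TPM), Vwf (27.6 TPM) and Egfl7 (133 TPM). One group thus spans most of the range of the series, and rescaling brought its libraries together: Kdr at 6.17, 32.1 and 19.4 TPM became 19.6, 22.9 and 16.9 rescaled TPM. Across libraries the coefficient of variation was lowest for Vegfa (27.4%) and highest for Lyve1 (55.5%), and for the other 8 it lay between 32.4% and 37.1%.

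Ordered by group mean of deposited TPM, each of the 8 blood endothelial genes peaked in 24-month CYP19A1 glands. On rescaled TPM Cdh5 (38.9), Kdr (29.5), Flt1 (15.5) and Egfl7 (95.8) instead peaked in CYP19A1 glands after 1 week at 12 months, a group that ranked between 9 and 13 of 16 for them on deposited TPM. The levels that follow are deposited TPM. Kdr was highest after 12 months of induction at 25.6 ± 7.58 TPM (SD, n = 3) and lowest in uninduced 18-month Esr1 glands at 10.5 ± 2.24 TPM. Egfl7 ran from 94.1 ± 15.4 TPM in uninduced 24-month CYP19A1 glands to 43.3 ± 13.9 TPM in 30-month Esr1 glands, and Pecam1 from 59.6 ± 10.3 to 27.9 ± 5.48 TPM between the same groups. Tek ran from 15.1 ± 3.32 TPM (CYP19A1, 12 months of induction) to 6.21 ± 0.361 TPM (Esr1, 30 months). Vegfa was highest in CYP19A1 glands induced for 1 week at 18 months (66.0 ± 19.4 TPM) and lowest in CYP19A1 glands induced for 1 week at 12 months (32.4 ± 6.57 TPM), a group in which all 3 libraries are among the 9 rich in ribosomal RNA. Lyve1 was highest in Esr1 glands after 12 months of induction (7.64 ± 2.04 TPM) and lowest in uninduced 12-month Esr1 glands (2.74 ± 0.792 TPM). For none of the 10 genes did any of the 15 neighbouring pairs in the order of its group means differ by more than the pooled SD between replicates on the log2 scale. Ordering 16 means places close values side by side, so this does not show whether groups differ. It shows only that neighbouring ranks are not separated. In bulk tissue fewer endothelial cells and less RNA per endothelial cell cannot be told apart.

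**Figure D1:**
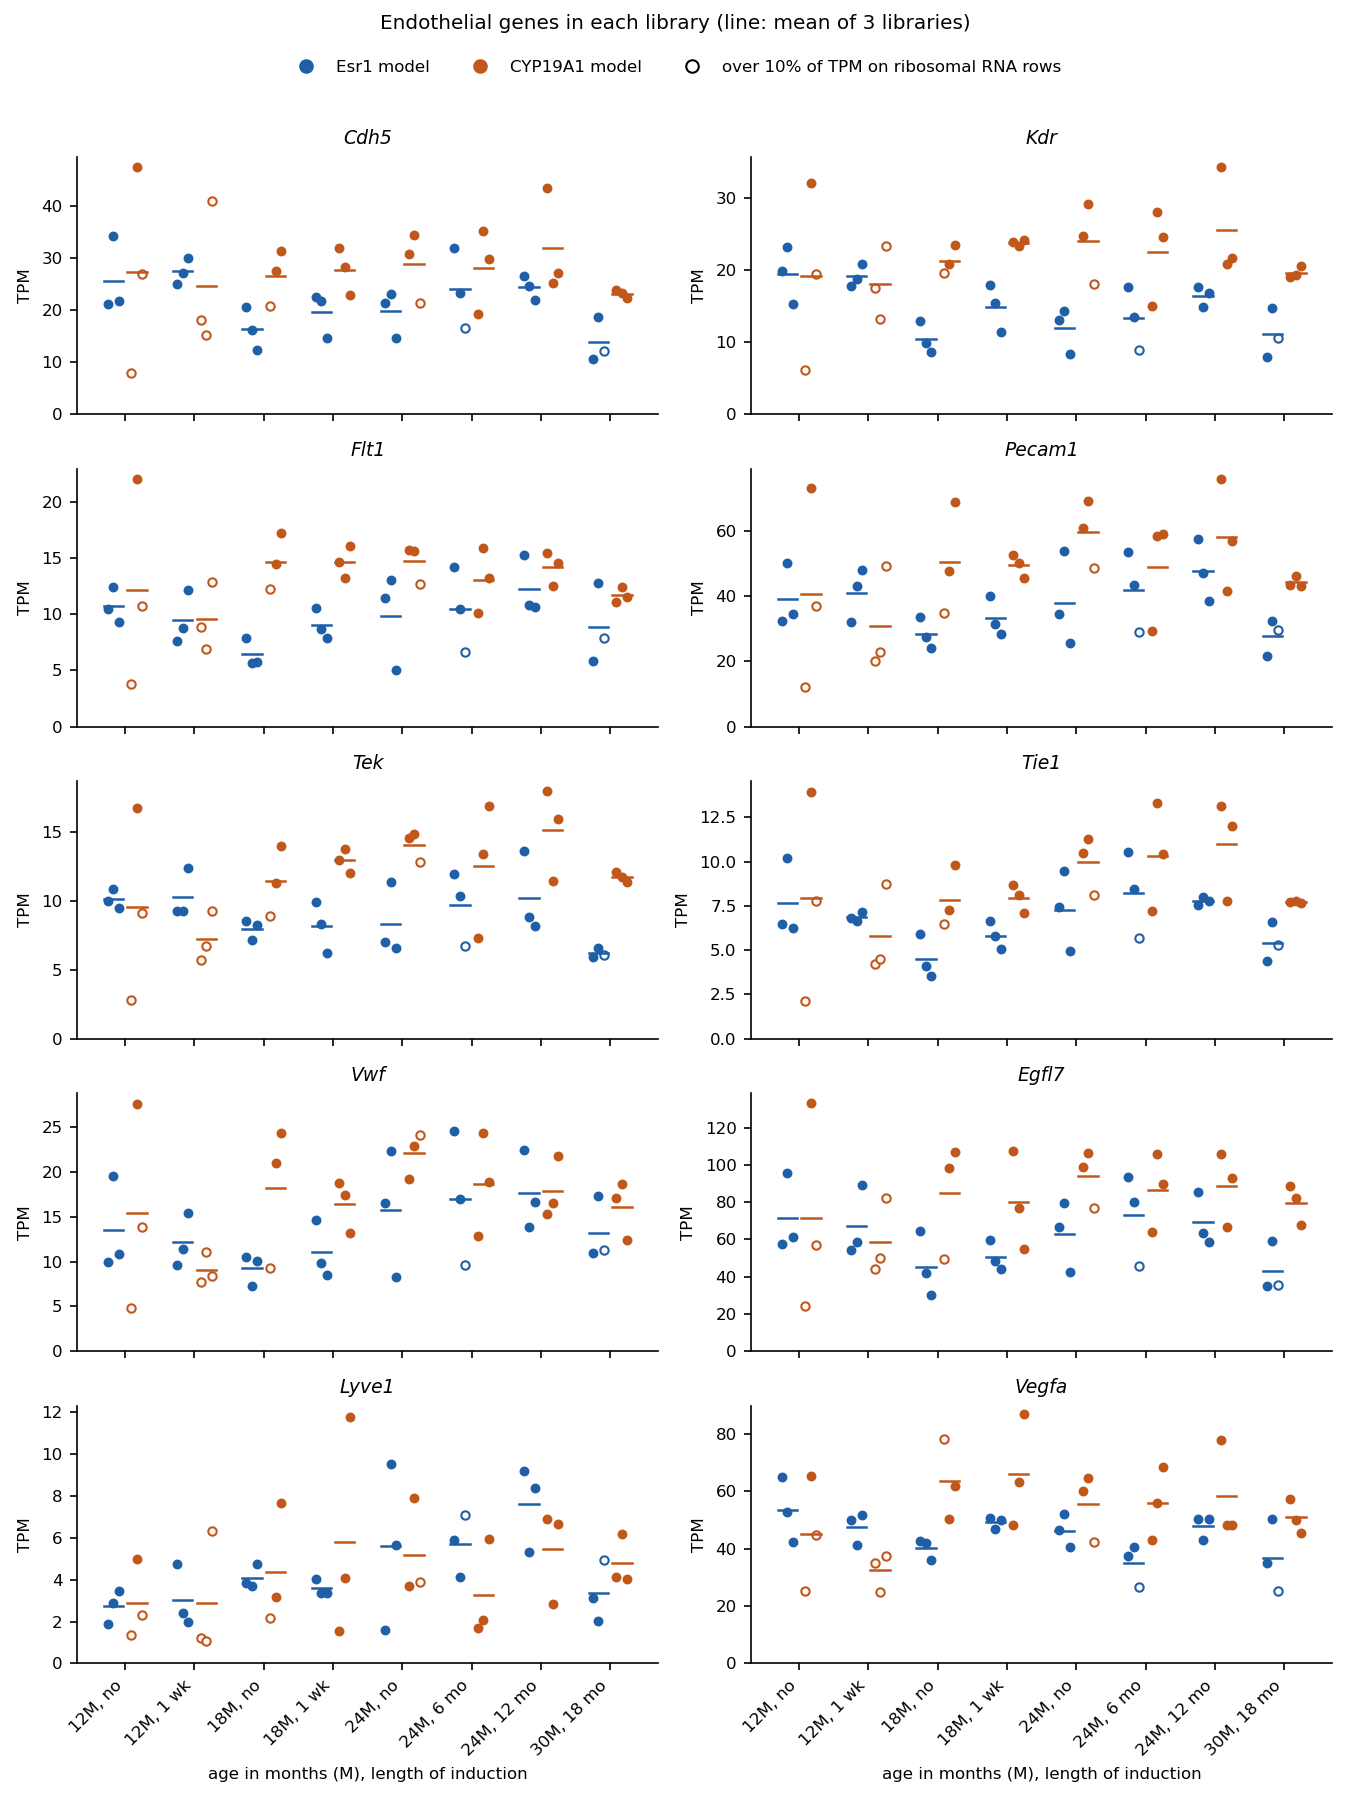
TPM (vertical axes, starting at 0) of the 10 genes in each of 48 libraries, by age and length of induction, Esr1 model in blue and CYP19A1 model in orange; lines are means of 3 libraries and open points are the 9 libraries with over 10% of TPM on ribosomal RNA rows. The group means of Kdr in the CYP19A1 model lie above those of the Esr1 model at 18, 24 and 30 months, while single libraries overlap after 6 months of induction. The 12-month CYP19A1 groups hold 5 of the open points.

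The clearest difference lay between the models. In uninduced glands, taken as the mean of 3 ages, Kdr averaged 21.5 TPM in CYP19A1 and 13.98 TPM in Esr1 glands. At 18 months its 3 values were 19.6, 20.9 and 23.5 TPM in CYP19A1 and 13.0, 9.86 and 8.67 TPM in Esr1 glands, and at 24 months 24.8, 29.1 and 18.2 TPM against 13.1, 14.4 and 8.42 TPM. At 12 months they were 6.17, 32.1 and 19.4 TPM against 19.8, 23.3 and 15.3 TPM. The groups do not overlap at 18 and 24 months and overlap at 12 months, where 2 of the 3 CYP19A1 libraries are rich in ribosomal RNA. On deposited TPM the log2 difference of Kdr was 0.56 (SE 0.19, adjusted p = 0.1102, limma moderated test), and 0 of the 10 genes passed an adjusted p under 0.05, where 0.98% of 20209 tested genes passed as higher in CYP19A1 and 1.97% as lower. The median of all genes was -0.10 in this comparison, and that of the 10 genes was 0.37; 2 of them, Kdr and Flt1, had an unadjusted p under 0.05, as did 17.7% of all genes.

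After rescaling, 8 of the 10 genes passed as higher in uninduced CYP19A1 glands, against 8.81% of 19736 genes tested on that scale as higher and 8.12% as lower. Among the receptors Kdr was higher by 0.71 on the log2 scale (SE 0.11, adjusted p = 3.93e-05), Flt1 by 0.68 (SE 0.13, adjusted p = 0.000453), Tie1 by 0.44 (SE 0.10, adjusted p = 0.00243) and Tek by 0.42 (SE 0.11, adjusted p = 0.00834). The rescaled TPM of Kdr ran from 16.9 to 28.0 (median 20.4) in 9 CYP19A1 libraries and from 8.23 to 21.8 (median 11.9) in 9 Esr1 libraries, and those of Flt1 from 9.32 to 17.5 (median 13.5) and from 4.74 to 13.0 (median 9.10). Both genes overlapped between the models in part of their range. The junction genes Pecam1 and Cdh5 were higher by 0.57 (SE 0.13, adjusted p = 0.00222) and 0.50 (SE 0.12, adjusted p = 0.00421). Egfl7 was higher by 0.57 (SE 0.14, adjusted p = 0.00537) and Vwf by 0.59 (SE 0.16, adjusted p = 0.0121). Vegfa, the ligand, differed by 0.36 (SE 0.14, adjusted p = 0.0842) and Lyve1 by 0.10 (SE 0.27, adjusted p = 0.829), and neither passed.

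Leaving the libraries rich in ribosomal RNA out of the deposited TPM led to the same 8 genes, with 5 CYP19A1 and 9 Esr1 libraries. In that fit 11.4% of tested genes were higher in CYP19A1 glands, and the log2 differences of the 8 ran from 0.69 (Tek) to 0.96 (Kdr, Flt1 and Egfl7). CYP19A1 glands of 12 months are then represented by replicate 2 alone, which held the highest level of 5 of these genes, so that this age counts on 1 library assumed to vary like the other groups. Without replicate 1 of uninduced 12-month CYP19A1 glands alone, 5 genes passed as higher on deposited TPM (3.54% of all genes), and in the 17 other fits that left out 1 library 0 passed. On rescaled TPM each of the 18 such fits called 8 or 9 of the 10, where 5.99% to 10.6% of all genes were higher.

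In long-induced glands, taken as the mean of the groups with 6, 12 and 18 months of induction, Kdr was the 1 gene of the 10 that passed on deposited TPM, against 2.97% of tested genes as higher and 1.18% as lower. Its values in CYP19A1 glands were 15.1, 28.0 and 24.6 TPM after 6 months, 34.4, 20.9 and 21.6 TPM after 12 months and 19.1, 19.4 and 20.5 TPM after 18 months. In Esr1 glands they were 17.6, 13.4 and 8.94 TPM, 17.7, 14.9 and 16.8 TPM, and 7.97, 14.8 and 10.6 TPM. All 3 Esr1 libraries lay below all 3 CYP19A1 libraries after 12 and after 18 months, and the groups overlapped after 6 months. The log2 difference was 0.70 (SE 0.19, adjusted p = 0.0267), beside a median of all genes of 0.12. The difference stayed between 0.62 and 0.79 in the 18 fits that left out 1 library. It missed the threshold in 7 of them (adjusted p = 0.0511 to 0.0878), namely without replicates 3 (Esr1, 6 months), 2 (Esr1, 12 months), 1 (Esr1, 18 months), 2 or 3 (CYP19A1, 6 months), 1 (CYP19A1, 12 months) or 3 (CYP19A1, 18 months).

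Rescaled values gave Kdr 0.55 (SE 0.11, adjusted p = 0.00128) and Tek 0.41 (SE 0.11, adjusted p = 0.0147), so that 2 of the 10 passed, against 4.67% of genes as higher and 5.24% as lower. The same 2 passed on deposited TPM without the libraries rich in ribosomal RNA (0.62 and 0.48), where 2.3% of genes were higher. Here the rescaled difference of Vwf was 0.01 (SE 0.16) and that of Lyve1 -0.40 (SE 0.27), while Egfl7 stood at 0.35, Vegfa at 0.31, Cdh5 at 0.28, Tie1 at 0.25, Pecam1 at 0.22 and Flt1 at 0.18, none of which passed. Rescaling also changed the split of all calls between the models, from 198 higher and 398 lower to 1739 higher and 1602 lower in uninduced glands and from 601 higher and 238 lower to 921 higher and 1034 lower in long-induced glands.

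**Figure D2:**
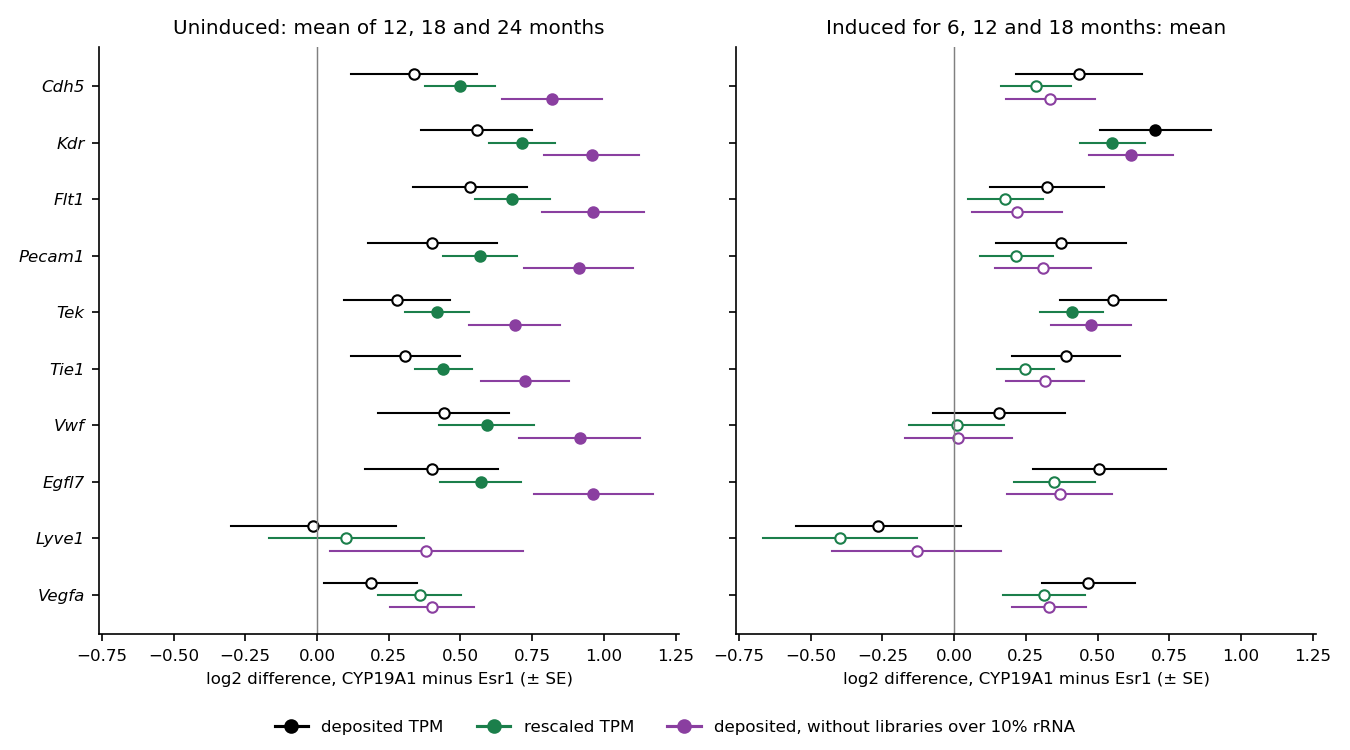
Log2 difference between CYP19A1 and Esr1 glands (horizontal axis, log2(TPM + 1) scale, ± SE) for each gene in uninduced and in long-induced glands, on deposited TPM (black), rescaled TPM (green) and deposited TPM without libraries over 10% ribosomal RNA (purple); filled points have an adjusted p under 0.05. In uninduced glands 8 genes are filled on the green and purple scales and 0 on the black, and in long-induced glands Kdr is filled on all 3.

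The estimated size of the model difference was not the same at each age, a comparison added after seeing the data. Whether it changed with age was tested between 12 and 24 months alone. Tested age by age in uninduced glands, 0 of the 10 genes passed at any age on deposited TPM. On rescaled TPM 0 passed at 12 months, all but Tek and Lyve1 at 18 months and Kdr alone at 24 months. Those of 18 months are not the set that passed over the mean of ages. Tek missed the threshold (adjusted p = 0.0574, limma moderated test) and Vegfa passed narrowly (adjusted p = 0.0499). The share of all genes that passed at each age is not given, so these calls have no background. On rescaled TPM the median over the 10 genes was 0.16 in uninduced glands at 12 months (0.02 for Tek to 0.34 for Vwf), 0.85 at 18 months (0.01 for Lyve1 to 1.19 for Flt1) and 0.53 at 24 months (0.03 for Lyve1 to 0.90 for Kdr). After 1 week of induction it was 0.70 at 12 and 0.75 at 18 months. On deposited TPM both medians of 12 months had the other sign (-0.22 uninduced and -0.27 after 1 week, groups that hold 5 of the 9 libraries rich in ribosomal RNA), and those of the other ages and inductions lay between 0.28 and 0.73. After 1 week of induction, over both ages, Kdr ran from 20.2 to 31.2 rescaled TPM in 6 CYP19A1 libraries and from 10.1 to 14.8 in 6 Esr1 libraries. These did not overlap, whereas the deposited TPM did (13.2 to 24.2 against 11.4 to 20.8). The 12-month CYP19A1 libraries among them are all rich in ribosomal RNA. In the long-induced groups the medians were 0.26 after 6 months, 0.20 after 12 months and 0.24 after 18 months. The change from 12 to 24 months differed between the models by 1.21 for Kdr on deposited TPM (SE 0.47, adjusted p = 0.766) and by 0.76 on rescaled TPM (SE 0.28, adjusted p = 0.816). In that test 0 of the 10 genes passed, and 0.0396% of all genes did.

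Other genes of the same pathways also passed as higher in uninduced CYP19A1 glands on rescaled TPM, where 8.81% of all genes passed as higher and 8.12% as lower. The lists were chosen with earlier results of these data known, so their counts give no independent support. Of 23 genes of endothelial junctions and surface 16 passed as higher (list median 0.51, beside -0.0010 over all genes), among them Nos3, the endothelial nitric oxide synthase, at 8.15 against 3.99 deposited TPM. Nos3 also passed on deposited TPM (log2 0.86, SE 0.19, adjusted p = 0.00595) and in long-induced glands (0.66, SE 0.19, adjusted p = 0.0448). Of 13 endothelial transcription factors 9 passed (median 0.42), including Gata2 and Sox18, which in long-induced glands passed on deposited TPM too (0.61 and 0.65). In the arterial and Notch list 8 of 10 passed (median 0.42), with Notch4, the endothelial Notch receptor, higher by 0.79 and its ligand gene Dll4 by 0.64. The VEGF co-receptor list gave 3 of 3 (Flt4, Nrp1 and Nrp2) and the angiopoietin list 1 of 4 (Ptprb, the phosphatase that acts on the Tek receptor, 0.51). Among venous genes 3 of 5 were higher, among them Nr2f2 by 0.65, and Vcam1 was lower by 0.53. Of the 4 other VEGF family ligands 0 passed in uninduced glands, and Vegfb passed in long-induced glands (0.64 deposited, adjusted p = 0.0157). Of 12 hypoxia response genes, which respond to the same signal as Vegfa, 0 passed as higher and Egln3 as lower in uninduced glands on both scales, and Pdk1 passed as higher in long-induced glands on deposited TPM alone.

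Some genes of lymphatic vessels gave calls in the other direction. Ccl21a, the chemokine of lymphatic endothelium, averaged 0.934 TPM in uninduced CYP19A1 and 4.89 TPM in Esr1 glands (log2 -1.58, SE 0.31, adjusted p = 0.00102). Stab2, a hyaluronan scavenger receptor, averaged 0.0456 against 0.791 TPM (log2 -0.76, SE 0.08, adjusted p = 1.50e-08), and Mmrn1, a secreted protein of lymphatic endothelium and platelets, 0.360 against 0.903 TPM (log2 -0.49, SE 0.13, adjusted p = 0.0329). These 3 passed as lower in CYP19A1 glands in both sets, uninduced and long-induced, on deposited TPM (of 7 lymphatic genes tested) and on rescaled TPM (of 6). Of all genes 1.97% passed as lower in uninduced and 1.18% in long-induced glands on deposited TPM, and 8.12% and 5.24% on rescaled TPM. Stab2 and Mmrn1 averaged under 1 TPM in uninduced glands of both models. Stab2 reached at most 1.44 TPM in any library. At its mean of 0.0456 TPM no uninduced CYP19A1 library can have reached the 1 TPM of the filter. Stab2 thus entered the tests through other libraries, where it is higher, and its call in uninduced glands lends no support to a direction. In uninduced glands the list median was -0.28 on deposited and -0.11 on rescaled TPM. Prox1, which specifies lymphatic endothelium, was at 0.317 against 0.612 TPM and did not pass (adjusted p = 0.0916), and Flt4, the lymphatic VEGF receptor, passed as higher on rescaled TPM in uninduced glands alone (0.42). Lyve1, another gene of lymphatic vessels, passed in neither set.

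Some markers of other cells also differed between the models, and their part in the endothelial differences was not tested. Of all genes on rescaled TPM, 8.81% passed as higher and 8.12% as lower in uninduced CYP19A1 glands. In long-induced glands 4.67% passed as higher and 5.24% as lower. On rescaled TPM 4 of 7 pericyte markers (Cspg4, Kcnj8, Notch3 and Pdgfrb) passed as higher in uninduced CYP19A1 glands. The sums given here are deposited TPM over all markers of a list. For all 7 pericyte markers the sum was 33.1 to 131 TPM in CYP19A1 and 63.5 to 120 TPM in Esr1 uninduced libraries. Of 7 luminal epithelial markers 0 passed in uninduced glands (median -0.50), where their sum was 78.2 to 625 against 153 to 844 TPM, and Cldn3 and Elf5 passed as lower in long-induced glands. Basal markers gave 3 of 4 lower in long-induced glands (Krt5, Krt14 and Krt17). White adipocyte markers gave 2 of 6 higher in uninduced glands (Plin1 and Retn), with sums of 1552 to 4489 against 1561 to 4599 TPM. Skeletal muscle markers gave 0 of 7 in both sets, with sums from 460 to 22097 in CYP19A1 and from 1705 to 35546 TPM in Esr1 uninduced glands. Macrophage markers gave 1 of 10 higher (Cd163) and 2 lower (Adgre1 and Lyz2) in uninduced glands, with sums of 80.4 to 682 against 224 to 889 TPM. Except for skeletal muscle, the lowest CYP19A1 sums came from replicate 1 of uninduced 12-month glands, the library with 67.2% of TPM on ribosomal RNA rows. No marker of these 6 lists was at 0 in any library.

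Induction left the 10 genes without a detected change. In the 8 comparisons of induced with uninduced glands of equal age in 1 model 0 of 10 passed on either scale. Of all tested genes 0.0099% passed after 1 week in Esr1 glands at 12 months, 0.00495% after 12 months in Esr1 glands, 0.0198% after 12 months in CYP19A1 glands and 0% in the other 5 comparisons, so these were comparisons with next to no calls for any gene. In the means over 4 inductions of each model 0% passed too, and likewise in the tests of whether the models responded differently to 1 week or to long induction. An unadjusted p under 0.05 was reached by 0 of the 10 genes in those 12 comparisons on deposited TPM, and on rescaled TPM by 2 in CYP19A1 glands after 1 week at 12 months (7.33% of all genes) and 1 in the difference in response to 1 week (7.4% of all genes). The unadjusted 95% interval of a single comparison reached 0.57 (Vegfa) to 1.01 (Lyve1) log2 units either side of the estimate on deposited TPM. On rescaled TPM it reached 0.35 (Tie1) to 0.95 (Lyve1), so smaller changes could not be told from none. Larger changes could also miss the adjusted threshold. Kdr, with 0.40 either side on rescaled TPM, changed by 0.56 in CYP19A1 glands after 1 week at 12 months (limma moderated test, adjusted p = 0.515).

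Vegfa, the ligand that hypoxia raises, went from 53.3 to 47.6 TPM after 1 week in Esr1 glands at 12 months (log2 -0.14, SE 0.28) and from 40.2 to 49.1 TPM at 18 months (0.29, SE 0.28). After 6 months it stood at 37.4, 40.6 and 26.6 TPM against 46.4, 52.1 and 40.4 TPM uninduced, with an overlap of 1 value, and its change of -0.41 (SE 0.28, adjusted p = 1) had the smallest p of the 10. In CYP19A1 glands 1 week took it from 45.1 to 32.4 TPM at 12 months (-0.38, SE 0.28) and from 63.5 to 66.0 TPM at 18 months (0.04, SE 0.28); on rescaled TPM these became 0.02 and -0.08. Kdr changed by -0.01 and 0.46 (SE 0.33) in Esr1 glands and by 0.14 and 0.16 in CYP19A1 glands at 12 and 18 months, and on rescaled TPM by -0.28 and 0.29 (SE 0.20) and by 0.56 (unadjusted p = 0.0079, adjusted p = 0.515) and 0.05. For Vwf the same 4 changes were -0.10, 0.20, -0.44 and -0.05 on deposited (SE 0.40) and -0.37, 0.03, -0.03 and -0.15 on rescaled TPM. Those of Lyve1 were 0.07, -0.15, -0.16 and 0.18 on deposited (SE 0.50) and -0.12, -0.30, 0.11 and 0.09 on rescaled TPM. In the first of these comparisons all 10 rescaled changes were negative and in the third 9 of 10 were positive, where 4 and 2 were positive on deposited TPM. Lyve1 had the smallest p in CYP19A1 glands after 6 months (3.25 against 5.16 TPM, log2 -0.61, SE 0.50), and Vwf in CYP19A1 glands after 12 months (17.9 against 22.1 TPM, -0.30, SE 0.40). In Esr1 glands after 12 months it was Kdr (16.5 against 12.0 TPM, 0.46, SE 0.33).

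The 12-month CYP19A1 comparison depended on 1 library. Without replicate 1 of the uninduced group, the library with 67.2% ribosomal RNA, 5 of the 10 genes passed as lower after 1 week on deposited TPM, Vegfa among them at -0.74 (adjusted p = 0.0210) and Vwf at -1.05 (adjusted p = 0.0187). In that fit 61.4% of all genes passed as lower, so the count is no more than the background. Without replicate 2 instead, the direction of Vwf turned (0.10), and that of Kdr ran from -0.48 to 0.62 over the 6 fits that left out 1 library.

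Age gave no call among the 10 genes either. From 12 to 18 months in uninduced Esr1 glands 0 of 10 passed, as did 0% of all genes, although every Kdr value at 18 months was below every value at 12 months: 19.8, 23.3 and 15.3 TPM at 12 months and 13.0, 9.86 and 8.67 TPM at 18 months (log2 -0.83, SE 0.33, unadjusted p = 0.0178, adjusted p = 1). On rescaled TPM 5 of the 10 had an unadjusted p under 0.05 in this comparison, as did 6.41% of all genes, and Kdr had an adjusted p of 0.345. At 24 months Kdr was at 13.1, 14.4 and 8.42 TPM (log2 -0.67 against 12 months, SE 0.33, adjusted p = 0.658), where 0.574% of all genes passed. In that comparison Lyve1 changed by 0.62 (SE 0.50), Vwf by 0.17 (SE 0.40) and Vegfa by -0.18 (SE 0.28).

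In uninduced CYP19A1 glands 0 of 10 genes passed from 12 to 18 months (0.0099% of all genes), where Vegfa had the smallest p (0.56, SE 0.28, adjusted p = 0.897), and 0 of 10 from 12 to 24 months (4.24% of all genes). In the second comparison all 10 had positive log2 changes on deposited TPM, from 0.36 (Cdh5) to 0.85 (Pecam1), beside a median of 0.22 over all genes. Tek, with the smallest p, stood at 2.79, 16.8 and 9.12 TPM at 12 months and at 14.6, 14.9 and 12.8 TPM at 24 months (log2 0.78, SE 0.32, adjusted p = 0.212). Vwf changed by 0.77 (SE 0.40), Lyve1 by 0.71 (SE 0.50), Kdr by 0.54 (SE 0.33) and Vegfa by 0.37 (SE 0.28). On rescaled TPM the 10 changes lay between -0.02 and 0.47. Without the libraries rich in ribosomal RNA those of Tek, Kdr, Vwf and Vegfa were negative, but 12 months is then replicate 2 alone. Without replicate 2 at 12 months 7 genes passed as higher on deposited TPM, where 16.6% of all genes did. All 7 skeletal muscle markers passed as higher at 24 months in this comparison on deposited TPM, Acta1 at 441 and 5475 TPM, and of the hypoxia response list Pgk1, Ldha, Egln1 and Ankrd37 passed (4 of 12), of the endothelial factors Klf4 alone. Their part in the endothelial values was not tested.

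From 24 months with 12 months of induction to 30 months with 18 months of induction all 10 genes had negative log2 changes in both models on deposited TPM, and 0 passed. On rescaled TPM 2 of the 10 were positive in Esr1 and 4 in CYP19A1 glands. In Esr1 glands (0.139% of all genes passed) Cdh5 had the smallest p: its values were 26.6, 24.7 and 21.9 TPM at 24 months and 10.7, 18.7 and 12.1 TPM at 30 months, without overlap (log2 -0.81, SE 0.38, adjusted p = 0.308). The median of all genes was -0.36 in this comparison, and on rescaled TPM Cdh5 changed by -0.32. In CYP19A1 glands (0% passed) Tie1 had the smallest p, at 11.0 and 7.73 TPM (-0.43, SE 0.33, adjusted p = 0.969).

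**Figure D3:**
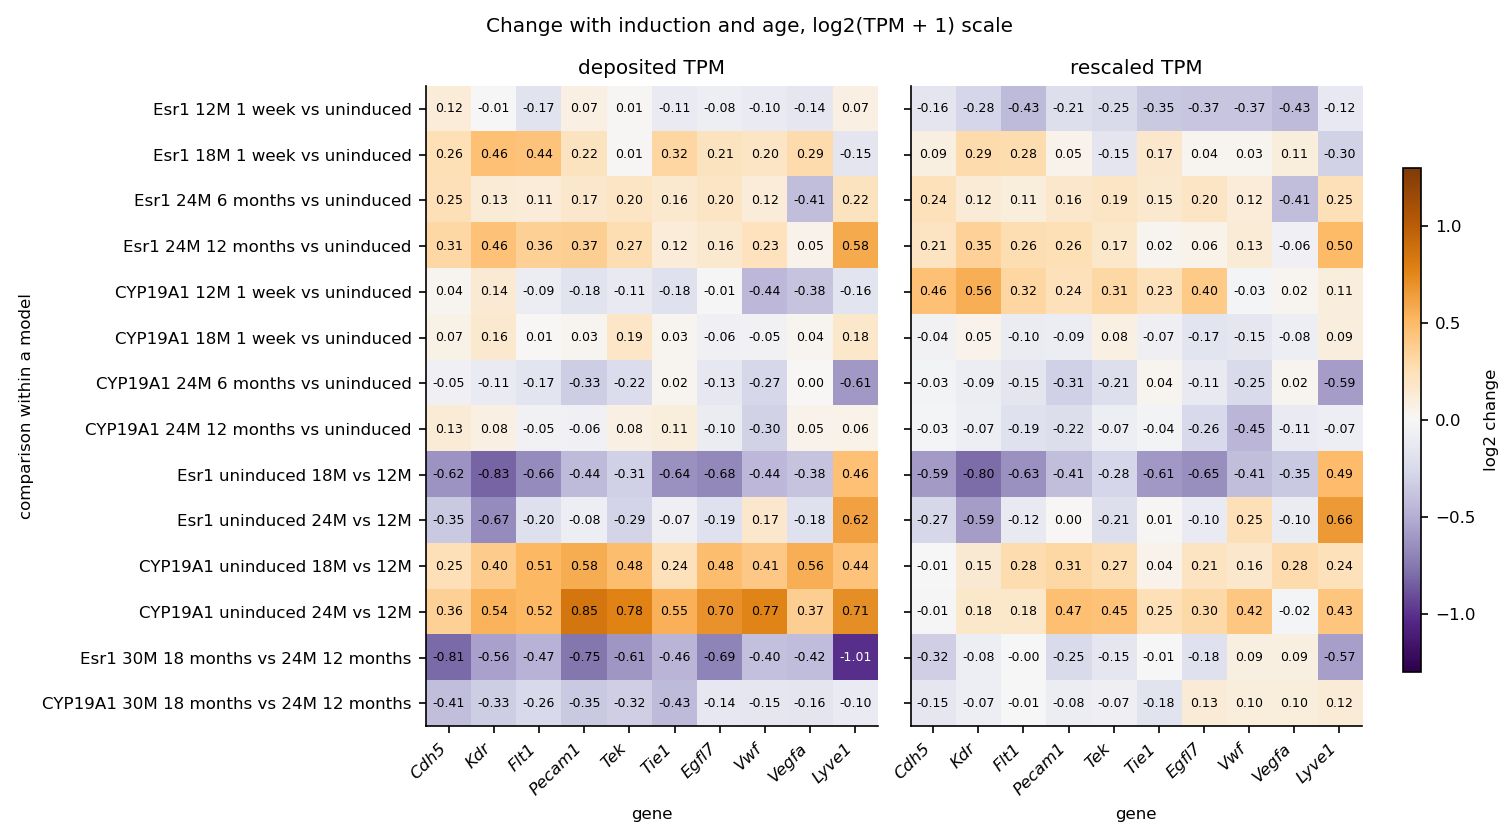
Log2 change (colour and printed value, log2(TPM + 1) scale) of each gene (columns) in the 14 comparisons of induction and age within a model (rows), on deposited TPM at left and on rescaled TPM at right. No cell passed an adjusted p under 0.05; the change from 12 to 24 months in uninduced CYP19A1 glands is positive for all 10 genes at left and lies between -0.02 and 0.47 at right.

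Within groups the blood endothelial genes varied together from library to library. With group means removed, the 28 pairs among the 8 genes had a Pearson r of 0.72 to 0.96 (median 0.88) over 48 libraries, given as a description with no p. Rescaling lowered them to 0.34 to 0.85 (median 0.68). Among 11603 protein-coding genes the median r with the mean of 7 of these genes was 0.71 on deposited and 0.00062 on rescaled TPM. Lyve1 stood outside: its 8 pairs with them had a median r of 0.33 on deposited and -0.03 on rescaled TPM. Vegfa lay between, with a median of 0.61 on deposited and 0.13 on rescaled TPM. The 5 genes most like that mean (of Cdh5, Kdr, Flt1, Pecam1, Tek, Tie1 and Egfl7) were Ptprb (r = 0.98, rescaled 0.95), Arhgap31 (0.97, rescaled 0.88), Esam (0.97, rescaled 0.88), Rasip1 (0.96, rescaled 0.90) and Mmrn2 (0.95, rescaled 0.87). By r on deposited TPM, nearest to Vwf were Sp100 (0.90, rescaled 0.81), Eng (0.90, rescaled 0.81) and Pcdhga9 (0.89, rescaled 0.78). Nearest to Vegfa were Hibch (0.86, rescaled 0.84), Sod1 (0.85, rescaled 0.84) and Arl4a (0.85, rescaled 0.78, where it ranked 16). Nearest to Lyve1 were Fcna (0.90, rescaled 0.87), Cd209d (0.83, rescaled 0.80) and F13a1 (0.83, rescaled 0.81). The median r of all ranked genes on deposited TPM was 0.56 with Vwf, 0.53 with Vegfa and 0.37 with Lyve1. On rescaled TPM these medians were -0.03, 0.05 and 0.04.

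**Figure D4:**
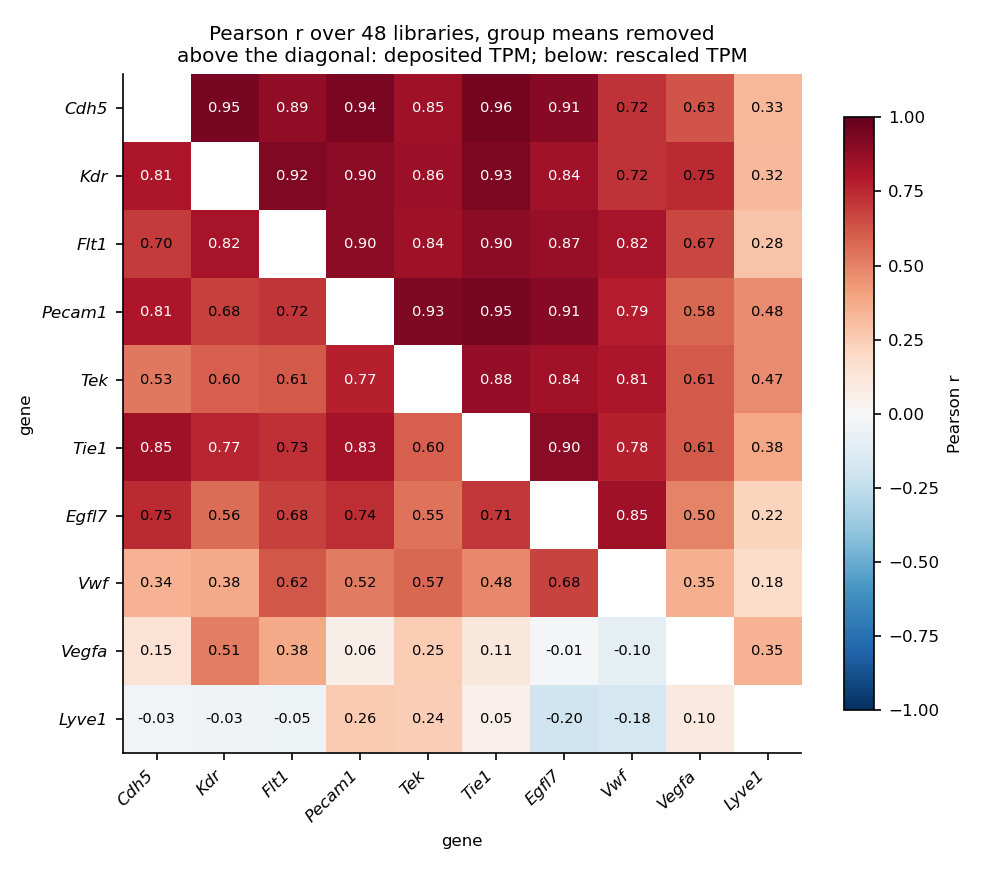
Pearson r (colour and printed value) between each pair of the 10 genes over 48 libraries with group means removed, deposited TPM above the diagonal and rescaled TPM below it. The block of 8 blood endothelial genes runs from 0.34 to 0.85 below the diagonal, and the row of Lyve1 from -0.20 to 0.26 against them.

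The levels of the 10 genes were set beside 5 scores of other cells, each the mean log2(TPM + 1) of fixed markers, in 50 pairs over 48 libraries with group means removed. Two-sided p-values come from 100000 permutations of libraries within groups, which cannot go below 1e-05, and were adjusted over the 50 pairs. For none of the 5 scores is the share of all genes that correlate with it given, so the counts that follow have no background. On deposited TPM most genes vary together. The median r of 11603 protein-coding genes with the mean of blood endothelial genes was 0.71 there, and 0.00062 on rescaled TPM. Counts on deposited TPM are thus not shown to be particular to these genes. The pericyte score, for the cells that wrap capillaries, correlated with 10 of 10 genes on deposited and 8 on rescaled TPM. Pecam1 gave r = 0.73 on rescaled TPM (permutation p = 5e-05, adjusted p = 0.001) with a Spearman rho of 0.71 (permutation p = 4e-05, adjusted p = 0.00125), and r = 0.76 without the 2 libraries farthest in the score. Within the models it was 0.77 (Esr1) and 0.68 (CYP19A1). For Vwf the rescaled r was 0.43, with 0.77 in Esr1 and -0.08 in CYP19A1 libraries.

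The white adipocyte score correlated with 10 genes on deposited and with 5 on rescaled TPM (Cdh5, Kdr, Flt1, Pecam1 and Vegfa). Kdr gave a rescaled r of 0.60 (permutation p = 0.00012, adjusted p = 0.001) and rho of 0.62 (permutation p = 0.00024, adjusted p = 0.00133), 0.55 without the 2 farthest libraries, 0.64 in Esr1 and 0.59 in CYP19A1 libraries. Vegfa gave 0.49 (permutation p = 0.00327, adjusted p = 0.00908; rho = 0.49, permutation p = 0.00387, adjusted p = 0.0108), 0.53 without the 2 farthest, but 0.15 in Esr1 and 0.70 in CYP19A1 libraries.

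The luminal epithelial score gave opposite pictures on the 2 scales. On deposited TPM 0 of 10 genes passed, with r from 0.08 to 0.36. On rescaled TPM all 10 values were negative and 7 passed, the largest for Flt1 at r = -0.71 (permutation p = 0.00014, adjusted p = 0.001; rho = -0.65, permutation p = 0.00022, adjusted p = 0.00133), and -0.72 without the 2 farthest libraries. That relation was -0.87 in Esr1 and -0.26 in CYP19A1 libraries, and on deposited TPM without the libraries rich in ribosomal RNA it was -0.34. The skeletal muscle score passed with 2 genes on deposited and 0 on rescaled TPM. Shares of cells in a bulk sample depend on each other, and these relations do not separate them.

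Lyve1 correlated with macrophage markers. Its r with the macrophage score was 0.72 on deposited (permutation p = 9e-05, adjusted p = 0.00025; rho = 0.66, permutation p = 0.00015, adjusted p = 0.000441) and 0.67 on rescaled TPM (permutation p = 0.00023, adjusted p = 0.00123; rho = 0.57, permutation p = 0.00089, adjusted p = 0.00371), and 0.65 on rescaled TPM without the 2 farthest libraries. Within the models the rescaled r was 0.45 in Esr1 and 0.79 in CYP19A1 libraries. For the other 9 genes the rescaled r with this score lay between -0.25 and 0.20, and 0 passed, whereas on deposited TPM 8 of those 9 passed (Pecam1 with r = 0.70). That count too is given without the share of all genes. By single markers, Lyve1 had its highest rescaled r with Timd4 (0.77), Folr2 (0.73) and Mrc1 (0.71), genes of resident tissue macrophages, and a median of 0.65 over the 10 macrophage markers. Over 5 lymphatic markers the median was 0.43, from -0.10 for Prox1 and 0.02 for Flt4 to 0.52 for Mmrn1 and 0.54 for Pdpn. Prox1 is scarce here, with a mean of 0.461 TPM, and Ccl21a is at 0 in 1 library.

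**Figure D5:**
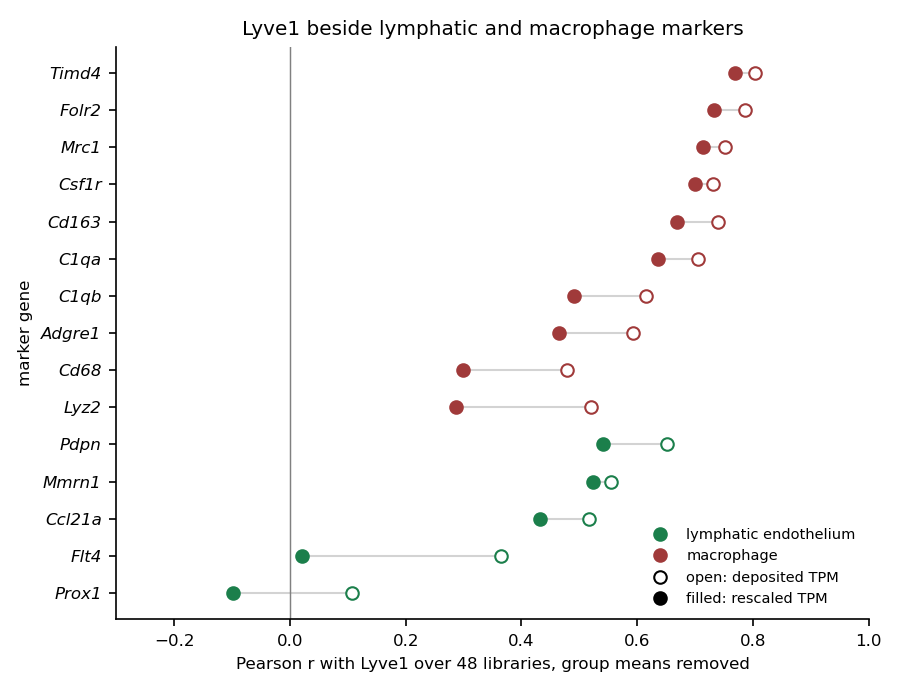
Pearson r of Lyve1 with each of 5 lymphatic (green) and 10 macrophage (red) markers over 48 libraries with group means removed, on deposited (open) and rescaled (filled) TPM. The macrophage markers Timd4, Folr2 and Mrc1 stand highest, at 0.71 to 0.77 when rescaled, and Prox1 lowest at -0.10.

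Vwf is also a platelet gene. Of the platelet markers, Pf4 had a rescaled r of -0.38 with Vwf, Ppbp 0.32, Gp9 0.39, Itga2b 0.55 and Gp1ba 0.59. On deposited TPM all of these r were positive, from 0.25 (Pf4) to 0.80 (Itga2b), so that of Pf4 changed sign. Gp9 is at 0 in 2 libraries and averages 0.198 TPM. Gp1ba averages 0.552 TPM and reached at most 0.85 TPM. These values are descriptions without a p, over the same 48 libraries.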

How the data were processed

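The 48 libraries are stranded and rRNA-depleted, sequenced single-end (75 bp, NextSeq 550) to a stated minimum of 50 M reads, per the labels' protocols. The deposited values are TPM, as the authors made them. The submitters' processing notes name, without roles or order, Trim Galore 0.6.5, STAR 2.7.9a and RSEM 1.3.1 with build mm10, and the annotation release is not given in the sources used here. TPM keep no depth, so no counting interval can be given. Per library 11028 to 17605 genes had 1 TPM or more.

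The 20209 genes that reached 1 TPM in 3 or more libraries entered the test as log2(TPM + 1) in 1 fit of 16 group means with limma 3.58.1 in R 4.3.3 (moderated two-sided tests with trend, Benjamini-Hochberg over all tested genes of a comparison, threshold 0.05, 21 comparisons). Folds understate changes of scarce genes. Rescaling divided each library by its median ratio to the mean library. Alternatives were a pseudocount of 0.1, no filter, rescaled TPM, the compared groups alone, a replicate block, no trend, libraries over 10% ribosomal RNA left out, and each library left out. Rescaling combined with leaving libraries out, and model differences per age, were added after seeing the data. The procedure was tested on simulated data. Correlations used numpy in Python. No correlation with the share of ribosomal RNA is given, because on it the libraries fall into separate clusters.

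The members and gene lists were chosen with earlier results of these data known. All 10 members are named, and log2 changes are given for members that passed, else for that with the smallest p, and for Vegfa, Lyve1, Vwf and Kdr after 1 week and from 12 to 24 months. From each pathway list up to 4 genes that passed are named; longer namings, and those of marker genes, were chosen after their values were seen. Likeness was ranked over protein-coding genes of at least 2 TPM on average.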

Additional observations from a re-analysis of the deposited data

How the results depend on the processing

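Of the 21 counts of members that passed, those of the model comparisons moved with the setting. In uninduced glands the count of 0 became 8 on rescaled TPM, 8 without libraries over 10% ribosomal RNA and 8 with both, and ran from 0 to 5 over fits without 1 library (3.54% of all genes higher in the fit with 5). In long-induced glands the count of 1 became 2 on rescaled TPM, 2 when only the compared groups were fitted, 2 without libraries over 10% ribosomal RNA and 2 with both, and ran from 0 to 2 without 1 library (1 in 9 and 2 in 2 of 18 fits; 1.82% to 3.38% of all genes higher in the 9 fits that moved it). Without 1 library the count ran from 0 to 5 for 1 week in CYP19A1 glands at 12 months (61.4% of all genes lower in the fit with 5) and from 0 to 7 from 12 to 24 months in CYP19A1 glands (16.6% higher in the fit with 7). The fits with both changes together were chosen after seeing the data. The other pseudocount, no filter, no trend and the replicate block moved no count by over 1.5 times: with the replicate block 0 members passed for uninduced and 1 for long-induced glands, and all 83 results kept their direction and their side of the threshold. Same-numbered libraries did not deviate together (median r 0.008, against -0.010 for other pairs), and every pair was over 0.1 in 1 of 14 comparisons.

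Over the 21 comparisons, 51 of 210 log2 changes of members had the other sign on rescaled TPM, none of which passed on either scale. Of the changes named by rule, those that turned are given here, and the cause was not tested. On rescaled TPM they were Lyve1 (-0.12) after 1 week in Esr1 glands at 12 months, Vegfa (0.024) and Lyve1 (0.11) after 1 week in CYP19A1 glands at 12 months, Vegfa (-0.078) at 18 months, Vegfa (-0.022) from 12 to 24 months in CYP19A1 glands and Vegfa (0.13) in the difference in response to 1 week. Without libraries over 10% ribosomal RNA they were, in CYP19A1 glands, Lyve1 after 1 week at 18 months (-0.13), Vegfa from 12 to 18 months (-0.22), and Tek (-0.18), Vegfa (-0.066), Vwf (-0.38) and Kdr (-0.25) from 12 to 24 months. Uninduced CYP19A1 glands of 12 months are there 1 library, replicate 2. Without 1 library, after 1 week in Esr1 glands at 12 months Vegfa ran from -0.30 to 0.0069, Lyve1 from -0.21 to 0.26, Kdr from -0.16 to 0.13 and Vwf from -0.28 to 0.18, and at 18 months Vwf from -0.0060 to 0.35. From 12 to 24 months Vwf in Esr1 glands ran from -0.12 to 0.54 and Kdr in CYP19A1 glands from -0.080 to 1.02. After 1 week in CYP19A1 glands at 12 months Kdr ran from -0.48 to 0.62, Lyve1 from -0.76 to 0.20 and Vwf from -1.05 to 0.10, and at 18 months Lyve1 from -0.43 to 0.73, Vegfa from -0.18 to 0.24 and Vwf from -0.45 to 0.20. Of the correlations, 23 of 50 had the other sign on rescaled TPM: all 10 with the luminal score (7 of which passed there), 5 with skeletal muscle (none of which passed), 7 with the macrophage and 1 with the white adipocyte score. The 7 that had passed on deposited TPM, and did not on rescaled TPM, were those of the macrophage score with Kdr (-0.14), Flt1 (-0.11), Tek (-0.11), Tie1 (-0.056), Egfl7 (-0.15) and Vegfa (-0.19), and that of Vwf with the white adipocyte score (-0.026). In Esr1 libraries alone Vegfa with the macrophage score turned on deposited TPM (-0.0025). Without libraries over 10% ribosomal RNA, 1 week in CYP19A1 glands at 12 months and the 2 comparisons that use it could not be fitted. Depth above the stated minimum is unknown.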
